A study of Mus musculus with 6 samples.

Results

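The TNF superfamily is a set of cytokines and their receptors through which immune, epithelial and stromal cells signal to each other. Here it was taken as the 46 genes of the deposited count table whose symbols name a superfamily ligand or receptor, 18 ligands and 28 receptors of 29721 listed genes. Messenger RNA was sequenced from pancreas tissue of Ela-myc mice at 3 months of age, 3 with a Parp2 knockout (PARP2 KO) and 3 wild type for Parp2 (WT), each library from a different animal. All 6 animals carry Ela-myc, a Myc transgene under an elastase promoter that works in acinar cells, the makers of digestive enzymes, and both groups are therefore tumour-prone. The question, per the series text, is what PARP2, a DNA repair enzyme that attaches ADP-ribose to proteins at broken DNA, does in the development of pancreatic tumours. The labels give tissue and genotype but not the deleted part of Parp2, the cells that lost it, or whether a piece of tissue held tumour, although the extraction protocol speaks of tumour samples.

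Superfamily ligands are mostly trimers made as membrane proteins, some of which are cut free, and each gathers several receptor chains into a cluster. Tnfrsf1a, Fas, Tnfrsf10b, Tnfrsf25, Edar, Ngfr and Tnfrsf21 encode receptors with a death domain, and some of these can start caspase activation. Most of the other receptors recruit TRAF adaptors and turn on the NF-kappaB transcription factors. In lymphoid tissue these pairs guide the build-up of follicles, the survival of B cells and the costimulation of T cells. In glands they carry inflammatory and repair signals to epithelium.

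Library totals lay between 28105021 and 32055565 counts. The library kit keeps the strand of the RNA, per the labels' protocols. Levels are given as CPM, the count for every 1000000 counts of the TMM-scaled library, and log2 fold changes are PARP2 KO minus WT with their standard error (SE). Parp2 itself had 14.4, 12.4 and 13.6 CPM in PARP2 KO, against 40.5, 36.4 and 37.5 CPM in WT (log2 fold change -1.50 with SE 0.097, edgeR adjusted p = 0.00201). The label pancreas held unevenly: the summed CPM of 12 acinar markers was 20909.6, 81637 and 91.1 in PARP2 KO replicates 1, 2 and 3, against 197879.7, 204053 and 140495 in WT replicates 1, 2 and 3, so that PARP2 KO replicate 3 had almost no acinar transcripts. A list of 9 glia and neuron markers summed to 33.6, 34.3 and 26.9 CPM in PARP2 KO and 18.4, 13.3 and 119 CPM in WT, and WT replicate 3 stood apart in it. By Y-linked genes and Xist, PARP2 KO replicate 1 and WT replicates 1 and 2 were male and the other 3 libraries female.

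The superfamily genes called higher in PARP2 KO pancreas included every tested receptor of the T cell costimulation and B cell groups and the lymphotoxin genes Lta and Ltb, while the TWEAK receptor gene Tnfrsf12a and the ectodysplasin genes Eda and Eda2r were lower. Of the 46 members 44 passed the filter on low counts. Of these 44, 27 were higher and 3 lower by the quasi-likelihood test of edgeR with Benjamini-Hochberg adjustment over all 17652 tested genes. That is 61.4% and 6.82% of the tested members. Over all tested genes 28.0% were called higher and 25.0% lower, which is 53.0% in either direction. These were 4938 higher and 4415 lower genes (7475 and 2160 without TMM, scaling by library totals alone). In 29 tested members every PARP2 KO library was above every WT library and in 6 below, against 34.4% and 33.7% of all tested genes. The median log2 fold change was 1.10 over the 44 members and 0.02 over all tested genes. These shares describe the members that passed the filter, and no test was made on the list. Tnfsf4 was the only member that exceeded the filter's CPM threshold in all PARP2 KO libraries and in no WT library. Without PARP2 KO replicate 3 there were 23 higher and 3 lower members, and without PARP2 KO replicate 1 there were 20 and 1. Without PARP2 KO replicate 2 there were 26 and 6, and without WT replicate 3 there were 20 and 3. In the same fits and order, 4225 and 3663, 3602 and 2543, 5125 and 5032, and 4284 and 3705 of all genes were called. With the acinar marker level as a covariate there were 18 and 3 members, and 3199 and 2546 of all genes. The acinar marker sum was lower in every PARP2 KO library than in every WT library, so this fit cannot separate acinar level from genotype. The calls of Cd40lg, Tnfsf13b, Tnfsf8, Tnfsf11, Fasl, Lta, Cd27, Tnfrsf25 and Tnfrsf23 were lost (adjusted p = 0.113, 0.179, 0.0557, 0.0524, 0.209, 0.0598, 0.0737, 0.0501 and 0.153). Their log2 fold changes in that fit were 1.55, 0.41, 1.78, 2.78, 0.92, 1.96, 1.98, 1.53 and 0.93. Among ligands 9 of 17 tested rose and 1 fell (median log2 fold change 0.93), and among receptors 18 of 27 rose and 2 fell (median 1.57).

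**Figure D1:**
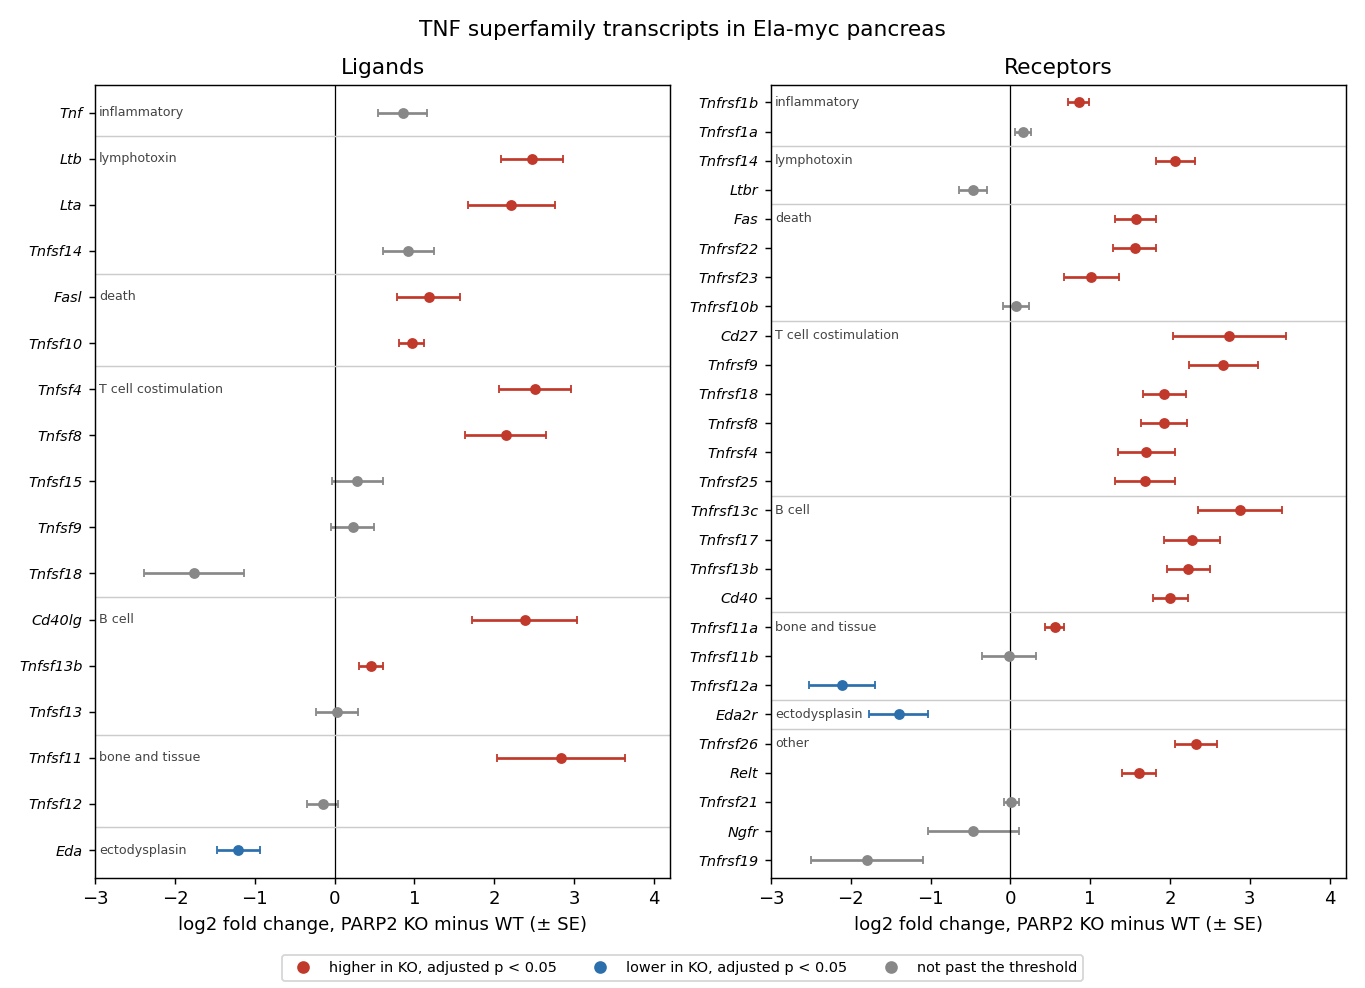
Log2 fold change (PARP2 KO minus WT, horizontal axis) of the 17 tested ligands and 27 tested receptors, grouped by role, with bars of 1 SE. Red points were called higher, blue points lower and grey points not at an edgeR adjusted p of 0.05; the 3 blue points are Tnfrsf12a, Eda and Eda2r.

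Markers of lymphocytes moved with these genes. All 15 T cell markers were higher in PARP2 KO, with sums of 618 to 1492 CPM in PARP2 KO and 83.04 to 239.7 CPM in WT. All 11 B cell markers were higher as well, with sums of 1649.8 to 2339 CPM in PARP2 KO and 163 to 463 CPM in WT. The 8 natural killer cell markers (64.4 to 91.2 CPM in PARP2 KO and 18.3 to 22.7 CPM in WT), the 8 dendritic cell markers (299.6 to 462 CPM in PARP2 KO and 68.4 to 111 CPM in WT) and the 4 regulatory T cell markers (56.8 to 101 CPM in PARP2 KO and 22.7 to 30.8 CPM in WT) all rose too. None of the markers in these lists was at 0 in all libraries. Of 10 macrophage markers 3 rose and 2 fell, with sums of 1267 to 1519.9 CPM in PARP2 KO and 1221 to 1231 CPM in WT. All 9 fat cell markers rose, with sums of 7026 to 8989.6 CPM in PARP2 KO and 573 to 1396 CPM in WT. Of 8 endothelium markers 7 rose, with sums of 802 to 916 CPM in PARP2 KO and 308.3 to 352 CPM in WT, and of 6 tested lymphoid stroma markers 4 rose, with sums of 333 to 991 CPM in PARP2 KO and 87.3 to 159 CPM in WT. The 6 plasma cell markers were mixed, 4 higher and 2 lower, with sums of 851 to 974 CPM in PARP2 KO and 564 to 831 CPM in WT. Of 7 duct cell markers 3 fell, with sums of 17.5 to 634 CPM in PARP2 KO and 1390.2 to 2236 CPM in WT. Of 8 fibroblast markers 3 fell and none rose. Their sums were 2596 to 3927 CPM in PARP2 KO and 4439 to 4836 CPM in WT. Of 8 islet cell markers 2 fell and none rose. Their sums were 3.14 to 601 CPM in PARP2 KO and 1418 to 3370 CPM in WT. None of the 12 acinar markers was called in either direction. Beside these counts, 28.0% of all tested genes were higher and 25.0% lower. The part of these cell types in the changes described here was not tested, and in such bulk tissue more cells of a type cannot be told apart from more RNA per cell.

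**Figure D2:**
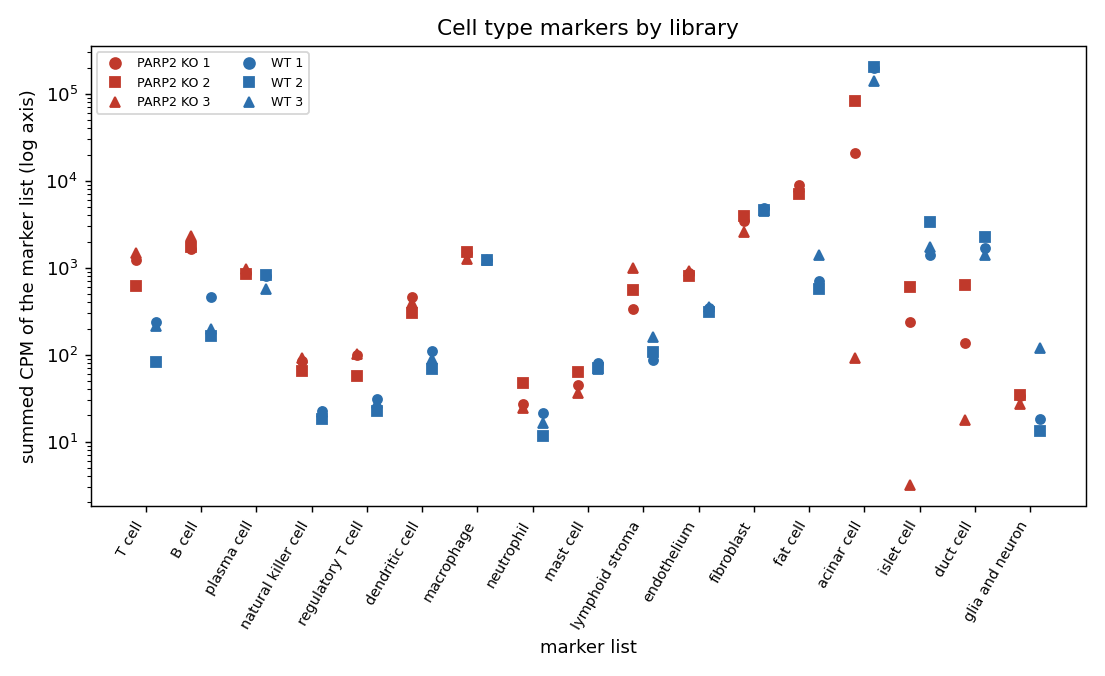
Summed CPM of 17 cell type marker lists (horizontal axis) in each library on a log axis, with PARP2 KO in red left of WT in blue and replicates 1, 2 and 3 as circles, squares and triangles. T cell, B cell, natural killer cell, dendritic cell and fat cell sums are higher in every PARP2 KO library, and acinar, islet and duct sums are lower, most in PARP2 KO replicate 3.

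The members that rose mostly shared their lowest libraries. PARP2 KO replicate 2 was the lowest PARP2 KO library for 25 of the 27 risen members, and WT replicate 2 was the lowest WT library for 20 of them. The highest PARP2 KO library was replicate 1 for 13 and replicate 3 for 14 of them. These counts were not made over all 4938 higher genes, so the order is not shown to be particular to the members. The T cell, natural killer cell, regulatory T cell and dendritic cell marker sums had the same lowest libraries. The B cell marker sum shared the lowest WT library, but in PARP2 KO it was lowest in replicate 1 at 1649.8 CPM, against 1743 CPM in replicate 2. PARP2 KO replicate 2 also kept the most acinar transcripts of the PARP2 KO libraries.

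**Figure D3:**
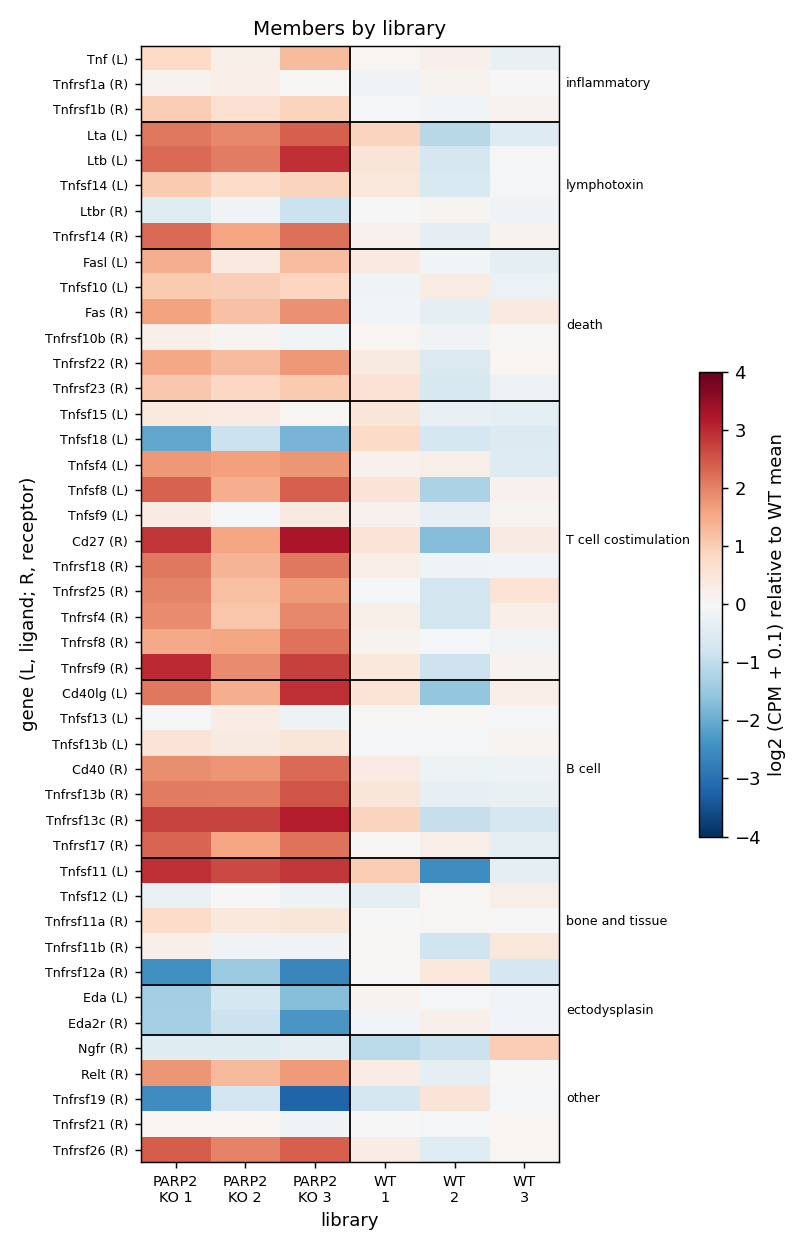
Log2 of CPM + 0.1 relative to the WT mean for the 44 tested members (rows, grouped by role) in the 3 PARP2 KO and 3 WT libraries (columns). Reds run through the PARP2 KO columns for most lymphotoxin, T cell and B cell members, with PARP2 KO replicate 2 often the palest. Tnfrsf12a, Eda, Eda2r, Tnfrsf19, Tnfsf18 and Ltbr are blue there, and Tnfsf13 is near 0. Ngfr is pale blue there, relative to a WT mean that holds the high WT replicate 3.

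The inflammatory cytokine TNF acts through the widely expressed receptor encoded by Tnfrsf1a and through the receptor of immune and endothelial cells encoded by Tnfrsf1b. Tnf had 5.70, 3.85 and 7.92 CPM in PARP2 KO, against 3.40, 3.70 and 2.58 CPM in WT. Every PARP2 KO library was above every WT library, but PARP2 KO replicate 2 only just, and the difference did not pass the threshold (log2 fold change 0.85 with SE 0.31, edgeR adjusted p = 0.0576; adjusted p = 0.0182 without PARP2 KO replicate 2). Tnfrsf1b rose, with 129.6, 98.1 and 116 CPM in PARP2 KO, against 60.9, 58.7 and 70.4 CPM in WT (log2 fold change 0.86 with SE 0.13, edgeR adjusted p = 0.00387). Tnfrsf1a had 105, 116 and 100.1 CPM in PARP2 KO, against 86.995, 105 and 96.3 CPM in WT (log2 fold change 0.15 with SE 0.10, edgeR adjusted p = 0.234). The Tnfrsf1a groups overlapped, and its fold change was within 2 SE of 0.

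The lymphotoxins are made by lymphocytes. Their receptors include the lymphotoxin beta receptor, Ltbr, on stromal and epithelial cells, which drives lymphoid tissue formation. The product of Lta is also listed as a ligand of Tnfrsf1a and Tnfrsf1b. Ltb (ENSMUSG00000024399, chromosome 17, 35194439 to 35196320, GRCm38) had 91.4, 79.8 and 147 CPM in PARP2 KO, against 27.4, 11.8 and 18.05 CPM in WT (log2 fold change 2.47 with SE 0.38, edgeR adjusted p = 0.00464). Lta, which lies in the same locus, had 7.25, 6.34 and 8.97 CPM in PARP2 KO, against 3.05, 0.688 and 1.10 CPM in WT (log2 fold change 2.22 with SE 0.55, edgeR adjusted p = 0.0171). All PARP2 KO libraries were above all WT libraries for both genes, and WT replicate 1 was the highest WT library for both. The call of Lta ended without WT replicate 3 (adjusted p = 0.0561). Ltbr did not follow its ligands, with 43.99, 54.97 and 34.02 CPM in PARP2 KO, against 62.6, 65.9 and 55.4 CPM in WT (log2 fold change -0.47 with SE 0.18, edgeR adjusted p = 0.0686). Its groups did not overlap, and without PARP2 KO replicate 2 it was called lower (adjusted p = 0.0118), while without PARP2 KO replicate 3 its log2 fold change was -0.29 (adjusted p = 0.137). Tnfsf14, the gene of the ligand LIGHT that binds both Ltbr and the receptor HVEM, had 3.43, 2.75 and 3.06 CPM in PARP2 KO, against 2.27, 1.03 and 1.55 CPM in WT, and missed the threshold (log2 fold change 0.93 with SE 0.32, edgeR adjusted p = 0.0512; adjusted p = 0.0297 without WT replicate 1). Tnfrsf14, which encodes HVEM on lymphocytes, rose with 28.8, 17.8 and 27.8 CPM in PARP2 KO, against 6.65, 4.56 and 6.51 CPM in WT (log2 fold change 2.07 with SE 0.25, edgeR adjusted p = 0.00246).

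NF-kappaB proteins bind short GC-rich elements, and the promoters of members were searched for the pattern GGG, any 3 bases and TTCC on both strands. Windows of 300 bases, 250 before to 50 after the transcription start, came from RefSeq on GRCm38.p6. At least 1 of them was found for 36 of the 46 members, which gave 40 member windows. The pattern was in 5.56% of all 32851 windows and in 4 of the 40 member windows. These belong to Ltb, Tnfrsf9 and Tnfrsf25, which rose, and Eda2r, which fell. A looser pattern was GGG, any 5 bases and CC, of which the first is a special case. It was in 50.8% of all windows and in 27 of the 40 member windows, those of 26 members. These spellings were picked after others had been tried, and a match of letters is not a measured binding site. The 4 windows are shown because these members changed and hold the stricter pattern, given in capitals, which reads on the opposite strand in Ltb and Tnfrsf25. It began at position -87 from the start in Ltb, -43 in Tnfrsf9, -218 in Tnfrsf25 and -200 in Eda2r.
Ltb, chr17:35194257-35194556, plus strand, 5′ to 3′: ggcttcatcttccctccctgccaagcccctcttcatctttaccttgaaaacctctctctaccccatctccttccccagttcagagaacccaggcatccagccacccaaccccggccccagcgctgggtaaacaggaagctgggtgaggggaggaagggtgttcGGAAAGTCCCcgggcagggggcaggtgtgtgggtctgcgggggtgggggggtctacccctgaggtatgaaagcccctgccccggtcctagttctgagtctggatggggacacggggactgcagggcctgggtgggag
Tnfrsf9, chr4:150927749-150928048, plus strand, 5′ to 3′: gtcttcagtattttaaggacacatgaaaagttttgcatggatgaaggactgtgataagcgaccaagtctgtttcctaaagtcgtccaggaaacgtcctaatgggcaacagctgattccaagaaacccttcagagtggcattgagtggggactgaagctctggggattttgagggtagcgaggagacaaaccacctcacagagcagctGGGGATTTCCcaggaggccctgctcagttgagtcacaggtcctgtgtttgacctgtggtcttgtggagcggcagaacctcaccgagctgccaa
Tnfrsf25, chr4:152115684-152115983, plus strand, 5′ to 3′: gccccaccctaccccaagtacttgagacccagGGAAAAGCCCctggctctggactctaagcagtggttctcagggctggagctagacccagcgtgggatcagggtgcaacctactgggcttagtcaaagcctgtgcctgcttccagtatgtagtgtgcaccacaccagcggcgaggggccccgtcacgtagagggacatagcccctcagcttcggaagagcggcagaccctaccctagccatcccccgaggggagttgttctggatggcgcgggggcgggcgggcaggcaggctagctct
Eda2r, chrX:97377160-97377459, minus strand, 5′ to 3′: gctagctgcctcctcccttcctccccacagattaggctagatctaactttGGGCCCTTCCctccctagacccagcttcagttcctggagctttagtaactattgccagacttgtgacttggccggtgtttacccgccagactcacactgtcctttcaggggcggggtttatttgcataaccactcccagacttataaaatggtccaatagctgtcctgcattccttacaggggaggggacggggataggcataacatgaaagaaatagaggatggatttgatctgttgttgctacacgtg

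Death ligands and their receptors can kill cells by caspase activation. Fasl, which encodes the Fas ligand of cytotoxic T cells and natural killer cells, had 2.46, 1.14 and 2.13 CPM in PARP2 KO, against 1.13, 0.774 and 0.620 CPM in WT (log2 fold change 1.18 with SE 0.40, edgeR adjusted p = 0.0443). PARP2 KO replicate 2 lay at the level of WT replicate 1, and the call ended without PARP2 KO replicates 1 or 3 or any WT library (adjusted p = 0.126, 0.0928, 0.0505, 0.119 and 0.12). Its receptor gene Fas rose, with 22.5, 16.5 and 26.2 CPM in PARP2 KO, against 6.77, 5.63 and 9.51 CPM in WT (log2 fold change 1.57 with SE 0.26, edgeR adjusted p = 0.00464). Tnfsf10, the gene of TRAIL, had 77.97, 73.8 and 67.6 CPM in PARP2 KO, against 34.1, 46.1 and 31.97 CPM in WT (log2 fold change 0.97 with SE 0.15, edgeR adjusted p = 0.00444). The PARP2 KO and WT values of Fas and Tnfsf10 did not overlap. The death domain receptor for TRAIL, Tnfrsf10b, had 7.52, 7.07 and 6.01 CPM in PARP2 KO, against 6.97, 5.89 and 6.72 CPM in WT, and these groups overlapped (log2 fold change 0.07 with SE 0.16, edgeR adjusted p = 0.723). Mice also have 2 decoy TRAIL receptors without a death domain, and both of their genes were called higher. Tnfrsf22 had 10.9, 9.06 and 12.4 CPM in PARP2 KO, against 4.70, 2.45 and 3.86 CPM in WT (log2 fold change 1.56 with SE 0.27, edgeR adjusted p = 0.00568). Tnfrsf23 had 6.52, 5.46 and 6.40 CPM in PARP2 KO, against 4.62, 1.89 and 2.58 CPM in WT (log2 fold change 1.01 with SE 0.34, edgeR adjusted p = 0.0468). The Tnfrsf23 call ended when any library other than WT replicate 1 was left out, with adjusted p between 0.0535 and 0.124. Both lie beside Tnfrsf26 on chromosome 7, where the 3 genes span 143607659 to 143685872 (GRCm38). They are related copies, and Tnfrsf23 and Tnfrsf26 share exon bases with an antisense transcript, so reads could be split between them.

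Of the receptors that costimulate T cells 6 of 6 rose, and of their tested ligands 2 of 5, where 28.0% of all tested genes were higher. Of these 2 ligand genes, Tnfsf4 passed the count filter only through the PARP2 KO libraries, so its call is not independent of the filter. The difference between receptors and ligands was not tested. Cd27, found on naive and memory T cells and memory B cells, had 35.8, 14.5 and 46.8 CPM in PARP2 KO, against 6.97, 1.38 and 6.10 CPM in WT (log2 fold change 2.74 with SE 0.71, edgeR adjusted p = 0.0216). Its spread was wide within each genotype, and the call ended without PARP2 KO replicate 1 or WT replicate 3 (adjusted p = 0.0584 and 0.0606). Tnfrsf9, the gene of the activation-induced costimulator CD137, had 16.5, 7.67 and 13.8 CPM in PARP2 KO, against 2.66, 1.07 and 2.20 CPM in WT (log2 fold change 2.67 with SE 0.43, edgeR adjusted p = 0.00469). Tnfrsf18, the gene of GITR on regulatory and activated T cells, had 13.4, 7.95 and 13.5 CPM in PARP2 KO, against 3.68, 2.66 and 2.79 CPM in WT (log2 fold change 1.93 with SE 0.27, edgeR adjusted p = 0.00328). Its exons overlap an antisense gene, and the strand setting of the counting is not given in the sources used here. Tnfrsf4, the gene of OX40, had 12.5, 7.23 and 12.9 CPM in PARP2 KO, against 3.95, 1.98 and 4.06 CPM in WT (log2 fold change 1.70 with SE 0.36, edgeR adjusted p = 0.0101). Tnfrsf8, the gene of CD30 on activated lymphocytes, had 2.11, 2.21 and 3.34 CPM in PARP2 KO, against 0.744, 0.645 and 0.620 CPM in WT (log2 fold change 1.93 with SE 0.29, edgeR adjusted p = 0.00371). In none of these receptors did the genotypes overlap. Tnfrsf25, the gene of the death domain receptor DR3 on T cells, had 14.4, 8.33 and 12.1 CPM in PARP2 KO, against 3.40, 2.11 and 5.27 CPM in WT (log2 fold change 1.68 with SE 0.38, edgeR adjusted p = 0.0122). For Tnfrsf25, Tnfrsf4, Tnfrsf9, Tnfrsf18 and Cd27 the lowest PARP2 KO library was replicate 2.

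Among the ligands of these receptors, Tnfsf8, which encodes CD30 ligand, had 29.8, 15.8 and 30.1 CPM in PARP2 KO, against 8.34, 2.32 and 6.41 CPM in WT (log2 fold change 2.15 with SE 0.51, edgeR adjusted p = 0.0158; adjusted p = 0.0505 without PARP2 KO replicate 1). Tnfsf4, which encodes OX40 ligand of antigen-presenting cells, was low throughout, with 0.541, 0.505 and 0.565 CPM in PARP2 KO, against 0.117, 0.129 and 0.0344 CPM in WT (log2 fold change 2.51 with SE 0.45, edgeR adjusted p = 0.00597). The groups of both ligand genes did not overlap. Tnfsf9, the gene of CD137 ligand, had 1.70, 1.26 and 1.72 CPM in PARP2 KO, against 1.53, 1.03 and 1.45 CPM in WT (log2 fold change 0.23 with SE 0.27, edgeR adjusted p = 0.497), and its exons overlap a non-coding gene on the other strand. Tnfsf15, the gene of the DR3 ligand TL1A, had 2.30, 2.18 and 1.80 CPM in PARP2 KO, against 2.47, 1.38 and 1.31 CPM in WT (log2 fold change 0.28 with SE 0.32, edgeR adjusted p = 0.47). Neither passed the threshold, and in each the PARP2 KO and WT values were interleaved. Tnfsf18, the gene of GITR ligand, ran the other way, with 0.189, 0.568 and 0.231 CPM in PARP2 KO, against 1.96, 0.645 and 0.723 CPM in WT (log2 fold change -1.76 with SE 0.63, edgeR adjusted p = 0.0542). Without PARP2 KO replicate 2 it was called lower at a log2 fold change of -2.37 (adjusted p = 0.0251), and without WT replicate 1 it was at -1.08 (adjusted p = 0.168). Its highest PARP2 KO library, replicate 2, was just under its lowest WT library. Cd70, the gene of the CD27 ligand, was too low for the test, with 18 counts over the PARP2 KO libraries and 1 count over the WT libraries, a scaled ratio of 13.0 (exact 95% interval 2.06 to 542.7, counting error only).

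Of the 7 genes of the B cell axis 6 were called higher, against 28.0% of all tested genes, and 4 of these calls, all of receptors, held without any of the 6 libraries. CD40 on B cells and antigen-presenting cells is engaged by CD40 ligand on helper T cells. Cd40 had 25.6, 23.8 and 34.1 CPM in PARP2 KO, against 8.81, 5.97 and 6.06 CPM in WT (log2 fold change 2.001 with SE 0.22, edgeR adjusted p = 0.0022). Cd40lg had 4.38, 2.71 and 7.68 CPM in PARP2 KO, against 1.41, 0.258 and 1.14 CPM in WT (log2 fold change 2.38 with SE 0.66, edgeR adjusted p = 0.0245). The Cd40lg call ended without PARP2 KO replicates 1 or 3 or WT replicate 3 (adjusted p = 0.062, 0.0554 and 0.0606), while that of Cd40 held without any of the 6 libraries. The survival factor BAFF, encoded by Tnfsf13b, and the related APRIL, encoded by Tnfsf13, share the receptors TACI (Tnfrsf13b) and BCMA (Tnfrsf17), and BAFF alone binds BAFF-R (Tnfrsf13c). Tnfrsf13c (ENSMUSG00000068105, chromosome 15, 82221743 to 82224369, GRCm38), the receptor of mature B cells, had 61.2, 60.2 and 82.1 CPM in PARP2 KO, against 17.1, 4.86 and 5.82 CPM in WT (log2 fold change 2.87 with SE 0.53, edgeR adjusted p = 0.0074). Tnfrsf13b had 52.7, 51.4 and 71.6 CPM in PARP2 KO, against 17.3, 9.97 and 10.1 CPM in WT (log2 fold change 2.23 with SE 0.27, edgeR adjusted p = 0.0026). WT replicate 1 was the highest WT library for both receptors, and still lay far below the lowest PARP2 KO library. Tnfrsf17, typical of plasma cells, had 2.84, 1.64 and 2.54 CPM in PARP2 KO, against 0.509, 0.602 and 0.344 CPM in WT (log2 fold change 2.27 with SE 0.35, edgeR adjusted p = 0.00392).

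Of the ligands of these B cell receptors, Tnfsf13b had 7.38, 6.69 and 7.25 CPM in PARP2 KO, against 4.93, 4.99 and 5.65 CPM in WT (log2 fold change 0.45 with SE 0.15, edgeR adjusted p = 0.0451). The groups did not overlap, but the call ended when any library was left out, with adjusted p between 0.0644 and 0.128, and with the size factors of DESeq2 (adjusted p = 0.0513). Tnfsf13 had 0.811, 1.04 and 0.720 CPM in PARP2 KO, against 0.861, 0.860 and 0.792 CPM in WT (log2 fold change 0.03 with SE 0.26, edgeR adjusted p = 0.927). These groups overlapped, and most exon bases of Tnfsf13 are shared with the read-through gene Tnfsfm13, so its count is uncertain.

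RANKL, encoded by Tnfsf11, drives osteoclasts in bone and is also made by activated T cells and lymphoid stroma. It signals through RANK (Tnfrsf11a), and the secreted decoy osteoprotegerin (Tnfrsf11b) captures it. Tnfsf11 (ENSMUSG00000022015, chromosome 14, 78277445 to 78308043, GRCm38) had 20.1, 16.9 and 18.9 CPM in PARP2 KO, against 5.40, 0.387 and 1.998 CPM in WT (log2 fold change 2.84 with SE 0.80, edgeR adjusted p = 0.0283). The PARP2 KO libraries lay close together and the WT libraries far apart, and the call ended without PARP2 KO replicate 1 or WT replicate 3 (adjusted p = 0.073 and 0.0951). Tnfrsf11a rose by less, with 24.3, 19.3 and 20.2 CPM in PARP2 KO, against 14.2, 14.9 and 14.3 CPM in WT (log2 fold change 0.56 with SE 0.12, edgeR adjusted p = 0.01). Tnfrsf11b had 7.52, 5.81 and 5.86 CPM in PARP2 KO, against 6.73, 3.70 and 8.96 CPM in WT, with overlapping groups (log2 fold change -0.02 with SE 0.33, edgeR adjusted p = 0.97).

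TWEAK, encoded by Tnfsf12, acts through the small receptor Fn14 (Tnfrsf12a), which is known to be induced in injured and growing epithelium. Tnfrsf12a (ENSMUSG00000023905, chromosome 17, 23675445 to 23677468, GRCm38) fell, with 5.92, 11.5 and 5.24 CPM in PARP2 KO, against 33.6, 43.8 and 20.2 CPM in WT (log2 fold change -2.11 with SE 0.42, edgeR adjusted p = 0.00894). The highest PARP2 KO library, replicate 2, was below the lowest WT library, replicate 3, and the call held without any of the 6 libraries. Acinar and duct cell marker sums were lower in the same libraries. With the acinar covariate Tnfrsf12a was still called lower, but that fit cannot separate acinar level from genotype. The part of acinar and duct cells was not tested. Tnfsf12 had 7.92, 9.56 and 8.35 CPM in PARP2 KO, against 7.40, 9.97 and 11.3 CPM in WT (log2 fold change -0.15 with SE 0.19, edgeR adjusted p = 0.532). These groups overlapped, and part of its exon bases is shared with the read-through gene Tnfsfm13.

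Ectodysplasin, encoded by the X-linked Eda, shapes skin appendages and glands. Its splice forms bind EDAR, which signals through the adaptor EDARADD, and the X-linked receptor encoded by Eda2r. Eda (ENSMUSG00000059327, chromosome X, 99975606 to 100400762, GRCm38) fell, with 6.41, 10.2 and 5.01 CPM in PARP2 KO, against 18.1, 16.2 and 15.4 CPM in WT (log2 fold change -1.20 with SE 0.27, edgeR adjusted p = 0.0118; adjusted p = 0.0555 without PARP2 KO replicate 1). Eda2r (ENSMUSG00000034457, chromosome X, 97333840 to 97377216, GRCm38) had 11.2, 15.7 and 5.55 CPM in PARP2 KO, against 26.5, 32.8 and 26.4 CPM in WT (log2 fold change -1.40 with SE 0.37, edgeR adjusted p = 0.0221). The groups did not overlap for either gene. PARP2 KO replicate 3 was the lowest and replicate 2 the highest PARP2 KO library for both, the order of the acinar marker sums. The part of acinar cells was not tested. The Eda2r call ended without PARP2 KO replicate 1 or WT replicates 1 or 2 (adjusted p = 0.0754, 0.0517 and 0.0662) and with sex as a term (adjusted p = 0.0559). With the acinar covariate the log2 fold changes of Eda and Eda2r were -0.80 and -0.77 (adjusted p = 0.0393 and 0.0215). That fit cannot separate acinar level from genotype. Edar had only 13 counts over the PARP2 KO libraries and 3 over the WT libraries (scaled ratio 3.14, exact 95% interval 0.862 to 17.2, counting error only).

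The other receptors went different ways. Relt, a receptor of lymphoid tissue, had 23.98, 17.5 and 23.2 CPM in PARP2 KO, against 8.57, 5.37 and 7.13 CPM in WT (log2 fold change 1.62 with SE 0.22, edgeR adjusted p = 0.00302). Tnfrsf26, the neighbour of the decoy TRAIL receptors, had 14.7, 10.6 and 14.3 CPM in PARP2 KO, against 3.25, 1.85 and 2.79 CPM in WT (log2 fold change 2.32 with SE 0.26, edgeR adjusted p = 0.00228). Both genes were separated between genotypes in every library. Tnfrsf19, which encodes the TRAF-binding receptor TROY of epithelial progenitors, had 7.22, 23.95 and 4.39 CPM in PARP2 KO, against 25.2, 58.4 and 39.6 CPM in WT (log2 fold change -1.80 with SE 0.70, edgeR adjusted p = 0.0741). Its groups stood apart by little, since PARP2 KO replicate 2 was close to WT replicate 1, and without PARP2 KO replicate 2 it was called lower at a log2 fold change of -2.83 (adjusted p = 0.00748). Tnfrsf21, which encodes the death domain receptor DR6, had 40.7, 40.9 and 34.8 CPM in PARP2 KO, against 39.1, 36.1 and 40.2 CPM in WT (log2 fold change 0.01 with SE 0.098, edgeR adjusted p = 0.914). Its groups overlapped, and its SE was the smallest of the 44 tested members. Ngfr, the neurotrophin receptor gene of Schwann cells and neurons, had 8.71, 8.74 and 9.30 CPM in PARP2 KO, against 5.71, 6.71 and 24.4 CPM in WT (log2 fold change -0.46 with SE 0.57, edgeR adjusted p = 0.515). The high value was WT replicate 3, the library with the most glia and neuron markers, and without it the log2 fold change was 0.51 (adjusted p = 0.0572).

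**Figure D4:**
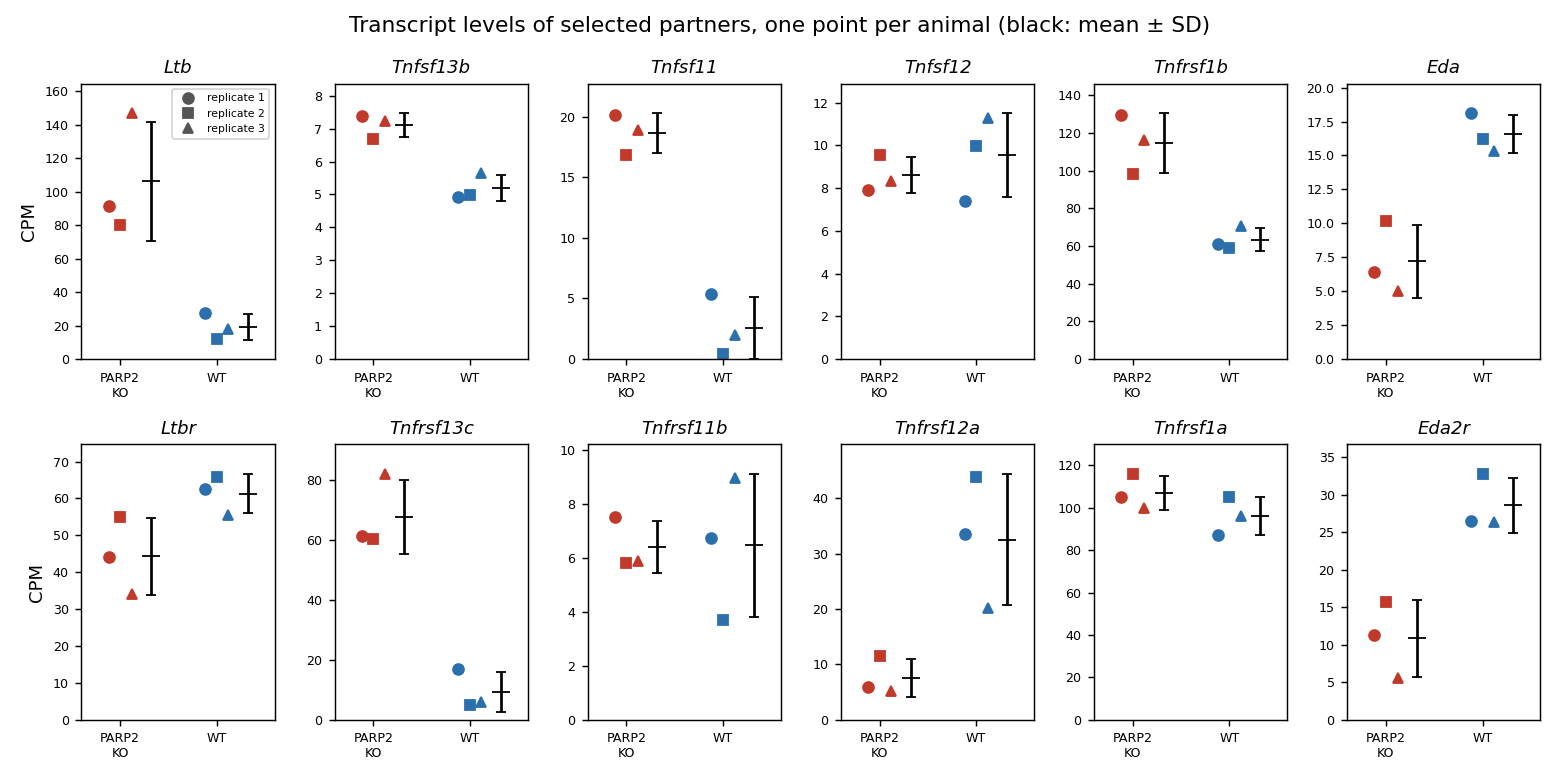
CPM of 12 members in each animal (points; circles, squares and triangles are replicates 1, 2 and 3) with the mean and SD in black, PARP2 KO left of WT; each column pairs related genes. Ltb, Tnfrsf13c and Tnfsf11 are higher in every PARP2 KO animal while Tnfrsf11b, Tnfsf12 and Tnfrsf1a overlap, and Tnfrsf12a, Eda and Eda2r are lower.

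Levels of different genes were compared as CPM per kilobase of exon. In PARP2 KO the highest were Ltb at 69.9 ± 23.6, Tnfrsf1a at 41.3 ± 3.15, Tnfrsf13c at 33.1 ± 6.02, Tnfrsf1b at 30.04 ± 4.14 and Tnfrsf13b at 20.7 ± 3.999 CPM per kilobase (SD, n = 3). In WT the highest were Tnfrsf1a at 37.1 ± 3.47, Ltbr at 26.04 ± 2.27, Tnfrsf12a at 16.8 ± 6.14, Tnfrsf1b at 16.6 ± 1.63 and Ltb at 12.6 ± 5.16 CPM per kilobase (SD, n = 3). Neighbours in these orders often lay within an SD of each other, such as Tnfrsf13c and Tnfrsf1b in PARP2 KO and Tnfrsf12a and Tnfrsf1b in WT. By this measure Tnfrsf12a ranked 24 of 46 in PARP2 KO and 3 of 46 in WT, and Tnfrsf13c ranked 3 in PARP2 KO and 11 in WT.

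The log2 ratio of levels per kilobase was computed in each library for 5 pairs of related genes. The pairs were chosen because their values had been seen to move apart, and the ratios are given as a description. An exact permutation test gave p = 0.1 for each pair, the smallest possible with 3 libraries against 3. It therefore could not decide, and the pairs had been picked from these data. Tnfsf12 over Tnfrsf12a averaged 0.63 ± 0.48 in PARP2 KO and -1.37 ± 0.76 in WT (SD, n = 3 each). Tnfsf11 over the decoy gene Tnfrsf11b averaged 1.88 ± 0.13 in PARP2 KO and -1.58 ± 1.49 in WT (SD, n = 3 each). Tnfsf13b over Tnfrsf13c averaged -4.99 ± 0.23 in PARP2 KO and -2.34 ± 1.03 in WT (SD, n = 3 each). The ligand gene thus gained on its receptor or decoy gene in PARP2 KO for TWEAK and RANKL, and the receptor gene on its ligand gene for BAFF. Ltb over Ltbr averaged 1.87 ± 0.80 in PARP2 KO and -1.13 ± 0.65 in WT, and the ratio of the TNF receptor genes, Tnfrsf1b over Tnfrsf1a, averaged -0.47 ± 0.29 in PARP2 KO and -1.16 ± 0.21 in WT (SD, n = 3 each).

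Downstream of the receptors, 48 genes of TNF receptor signalling were all tested, and 30 rose and 5 fell, against 28.0% and 25.0% of all tested genes, with a median log2 fold change of 0.43. This list was written with earlier results of these data known. The 5 risen genes of the list with the smallest p were Tnfaip3, Nfkbie, Relb, Birc3 and Nfkbia. Tnfaip3, which encodes the deubiquitinase A20 that ends TNF signalling, had 90.9, 73.3 and 87.8 CPM in PARP2 KO, against 23.4, 18.8 and 21.3 CPM in WT (log2 fold change 1.99 with SE 0.13, edgeR adjusted p = 0.00201). Nfkbie, which encodes an inhibitor that holds NF-kappaB in the cytoplasm, had 62.3, 54.7 and 67.05 CPM in PARP2 KO, against 22.7, 17.2 and 20.5 CPM in WT (log2 fold change 1.61 with SE 0.14, edgeR adjusted p = 0.00201). Nfkbia, the gene of the related inhibitor of the classical branch, had 134, 135 and 117 CPM in PARP2 KO, against 61.01, 65.5 and 52.9 CPM in WT (log2 fold change 1.11 with SE 0.11, edgeR adjusted p = 0.00208). Birc3, the gene of the TRAF-bound ubiquitin ligase cIAP2, had 124, 97.3 and 129 CPM in PARP2 KO, against 45.3, 34.4 and 38.7 CPM in WT (log2 fold change 1.56 with SE 0.15, edgeR adjusted p = 0.00201). Relb, which encodes the transcription factor of the non-canonical branch downstream of Ltbr, CD40 and BAFF-R, had 87.6, 65.98 and 83.2 CPM in PARP2 KO, against 31.1, 31.5 and 27.97 CPM in WT (log2 fold change 1.39 with SE 0.13, edgeR adjusted p = 0.00201). In all 5 of these genes every PARP2 KO library was above every WT library, and the calls held without any of the 6 libraries. The markers of T cells, B cells and dendritic cells moved with these genes as well, and their part was not tested.

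The 5 signalling genes that fell were Edaradd, Bex3, Traf4, Adam10 and Tab1. Edaradd, the adaptor of EDAR, had 11.3, 24.5 and 5.88 CPM in PARP2 KO, against 65.7, 54.4 and 67.96 CPM in WT (log2 fold change -2.18 with SE 0.51, edgeR adjusted p = 0.0161; adjusted p = 0.0641 without PARP2 KO replicate 1). Bex3, which encodes a partner of the receptor NGFR, had 15.4, 21.3 and 12.4 CPM in PARP2 KO, against 51.2, 49.2 and 42.7 CPM in WT (log2 fold change -1.54 with SE 0.21, edgeR adjusted p = 0.00311). Traf4, the TRAF gene typical of epithelia, had 21.9, 27.6 and 20.5 CPM in PARP2 KO, against 44.5, 52.1 and 38.2 CPM in WT (log2 fold change -0.94 with SE 0.16, edgeR adjusted p = 0.00542). These 3 were lower in every PARP2 KO library, with the highest PARP2 KO value in replicate 2 and the lowest in replicate 3. The acinar, islet and duct cell marker sums were lower in the same libraries and in the same order. With the acinar covariate these 3 genes were still called lower, but that fit cannot separate acinar level from genotype. The part of acinar, islet and duct cells was not tested. Adam10, which encodes a protease that cuts membrane ligands, had 183, 199.8 and 179 CPM in PARP2 KO, against 281, 259 and 242 CPM in WT (log2 fold change -0.48 with SE 0.097, edgeR adjusted p = 0.00862). Tab1, a partner of the kinase TAK1, had 16.95, 18.6 and 21.1 CPM in PARP2 KO, against 25.6, 27.9 and 21.5 CPM in WT (log2 fold change -0.40 with SE 0.14, edgeR adjusted p = 0.0477). Scaled by library totals alone, Adam10 and Tab1 were no longer called (adjusted p = 0.542 and 0.948), nor were they with the acinar covariate (adjusted p = 0.0589 and 0.0658). With that covariate 22 genes of the list were higher, and the calls of Tnip1, Sharpin, Rbck1, Traf3, Traf2, Tab3, Adam17 and Otulin were lost (adjusted p between 0.055 and 0.247). Without PARP2 KO replicates 1 or 2 or WT replicates 1 or 2 the call of Tab1 ended too (adjusted p = 0.148, 0.0842, 0.113 and 0.14).

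**Figure D5:**
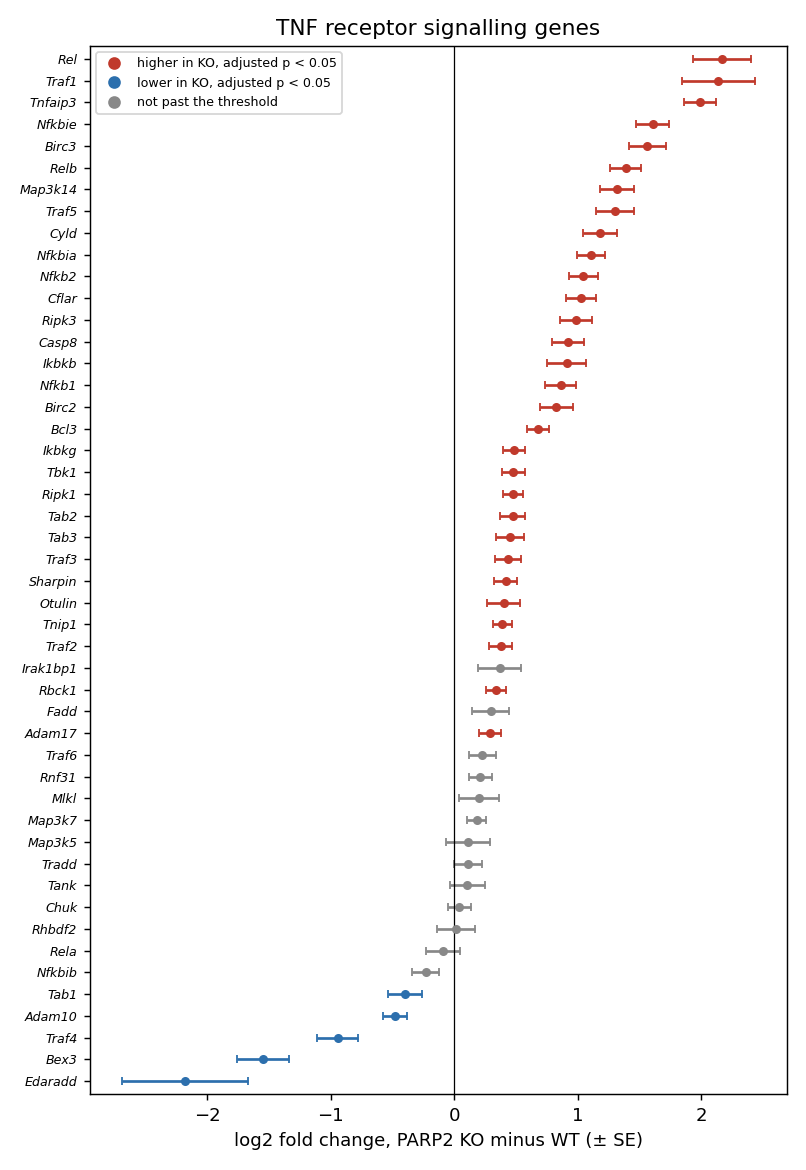
Log2 fold change (PARP2 KO minus WT) of 48 TNF receptor signalling genes with bars of 1 SE, ordered by size; red called higher, blue called lower and grey not called at an edgeR adjusted p of 0.05. The 30 red points include Rel, Traf1, Tnfaip3, Nfkbie and Birc3 at the top, and the 5 blue points are Tab1, Adam10, Traf4, Bex3 and Edaradd at the bottom.

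Members that lie side by side in the genome did not always share a call. On chromosome 17 Ltb, Tnf and Lta stand within 35194439 to 35205351, and Ltb and Lta rose by 2.47 and 2.22 on the log2 scale while Tnf, between them, was at 0.85 and not called. On chromosome 6 Cd27 rose, whereas its neighbours Ltbr and Tnfrsf1a, within 125232622 to 125362484, did not pass the threshold. On chromosome 1 Tnfsf4 and Fasl were called higher, while Tnfsf18 between them had a log2 fold change of -1.76 that was not called. The receptor genes Tnfrsf4 and Tnfrsf18, within 156013843 to 156028895 on chromosome 4, both rose, by 1.70 and 1.93. No test of the difference between neighbours was made.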

How the data were processed

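Per the labels' protocols, RNA was extracted with a Qiagen RNeasy kit and libraries were made with Illumina's stranded mRNA kit, without molecular identifiers. The authors deposited raw counts per gene and log2 normalized counts, which equal log2(count / size factor + 1) here. The submitters' processing notes name FastQC 0.11.5, STAR 2.5.3a, DESeq2 1.28.1 and GRCm38 (mm10). No counting tool, strand setting or annotation release is named, but all 29721 gene positions match GENCODE vM21, from which exon lengths were taken.

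Counts of the 6 libraries were scaled by TMM and tested between genotypes with the quasi-likelihood test of edgeR 4.0.16 (R 4.3.3) after filterByExpr, with Benjamini-Hochberg adjustment over 17652 genes and a threshold of 0.05. The scripts were first tested on simulated counts with known changes in far fewer genes than were called here. Scaling under changes as broad as these was therefore not tested. Alternatives used limma 3.58.1, DESeq2 1.42.0, other scalings, filters and covariates, and left out each library. Replicates are different animals, and pairs within a genotype differed by far more than counting noise. Members and gene lists were chosen with earlier results of these data known. Values of every library were given for members that passed the threshold and for their tested binding partners. They were also given for the remaining tested members, Tnfrsf19, Tnfrsf21 and Ngfr, and for the 5 signalling genes with the smallest p in each direction. Precision is set by 3 animals per genotype.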

Additional observations from a re-analysis of the deposited data

How the results depend on the processing

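No paired analysis was possible because the labels give the animals no numbers shared between genotypes. Leaving out 1 library at a time gave 20 to 26 higher and 1 to 6 lower members, 3602 to 5125 higher and 2543 to 5032 lower genes over the table, and 25 to 31 higher and 3 to 5 lower signalling genes. At an adjusted p of 0.01, 16 members were higher and 1 lower, as were 2766 and 2103 of all genes, and 3 signalling genes were lower. DESeq2's Wald test called 6 members lower. Library totals alone moved the median log2 fold change of all genes to 0.42 and gave 7475 higher and 2160 lower genes and 41 higher and 3 lower signalling genes. Relative to that shift, the calls gained there by Tnfrsf1a (0.55) and Tnfrsf21 (0.41) were small or absent. No count filter left 3 lower signalling genes, and the acinar covariate 3, beside 22 higher ones, with 3199 higher and 2546 lower genes. Without a count filter Tnfsf13b, Tnfsf11 and Cd27 lost their calls (adjusted p = 0.0907, 0.0709 and 0.0606), and limma-voom lost Fasl (adjusted p = 0.0518). Tnfsf14 passed the threshold under 5 alternatives (adjusted p between 0.0178 and 0.0471) and Tnfrsf19 under 3 (adjusted p between 0.0045 and 0.044), while DESeq2's Wald test also called Tnfsf18, Tnf and Ltbr (adjusted p = 0.0335, 0.0306 and 0.0491). With sex as a term Cd40lg, Tnfsf13b, Tnfsf11, Tnfrsf23 and Eda2r lost their calls (adjusted p between 0.0559 and 0.101).

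The reversals were all in members without a call. Tnfrsf11b was at 0.36 with library totals, 0.037 with limma-voom, 0.059 on the deposited log2 values, 0.032 with the acinar covariate, and -0.30 to 0.28 with a library left out. Tnfsf12 was at 0.23 with library totals. Tnfsf13 was at -0.00043 with limma-voom and -0.13 to 0.16 with a library left out. Tnfrsf21 was at -0.0065 with DESeq2 size factors and -0.037 to 0.099 with a library left out. Leaving out a library gave -0.0025 to 0.17 for Tnfrsf10b and -0.81 to 0.51 for Ngfr. The cause was not tested. Of the 27 rises, 18 were called in every fit other than the stricter threshold. Cd70 and Edar failed the count filter but entered the fit without it, in which 25 members were called higher. These include a member that failed the filter, a call that rests on few counts.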

Other observations

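The C1q and TNF related family, whose proteins share a trimeric head with the TNF ligands but bind no TNF receptor as a family, was looked at after the data had been seen. Of its 8 tested genes 5 were called higher and none lower, against 28.0% and 25.0% of all tested genes, with a median log2 fold change of 0.47. C1qtnf9, which encodes a secreted protein made mainly by fat and vessels, averaged 17.8 ± 4.41 CPM in PARP2 KO and 5.30 ± 2.26 CPM in WT (SD, n = 3 each). Its log2 fold change was 1.74 with an SE of 0.34 (edgeR adjusted p = 0.00772). All PARP2 KO libraries were above all WT libraries for it, and its call held without any of the 6 libraries. The calls of C1qtnf1, C1qtnf6, C1qtnf7 and C1qtnf12, with log2 fold changes of 0.45 to 0.61, ended when 1 or another library was left out (adjusted p up to 0.129). The 9 fat cell markers and 7 of 8 endothelium markers were higher in PARP2 KO as well, and their part was not tested.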
